A study of Mus musculus with 2 samples.

Results

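The beta-2 leukocyte integrins are represented here by the 5 listed genes Itgam, Itgax, Itgad, Itgal and Itgb2, out of 21521 protein-coding genes (autosomes and X). They were taken by name, as a gene family around Itgam, a gene selected on its loop in both replicates, and their loops were chosen by position in these lists: a loop belonged to a gene when one of its anchors, the 2 stretches of DNA that a loop joins, overlapped the gene or lay within 25 kb of it, or when the loop spanned the whole gene. The measurements were Hi-C maps, in which DNA pieces that touch in the nucleus are ligated and counted as pairs, of 2 samples of HPC5, a line of mouse blood progenitor cells that came from bone marrow. Both samples were Etv6+/+, that is wild type for the gene of the transcriptional repressor that the study is about, and they form 1 group with the replicate numbers 1 and 2. No mutant or treated sample was analysed, and the labels do not say whether the 2 samples came from separate cultures or whether the line is 1 clone. Hi-C gives no expression values, so the labelled cell type was not checked against markers, and nothing below says whether a gene was active.

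A beta-2 integrin is a pair of chains at the leukocyte surface, in which the common beta-2 chain, CD18, made from Itgb2, joins 1 of the alpha chains. Itgal encodes the alpha chain CD11a of LFA-1, Itgam the alpha chain CD11b of Mac-1 (complement receptor 3), Itgax the alpha chain CD11c and Itgad the alpha chain CD11d. The pairs hold leukocytes to vessel walls and to other cells through ligands such as ICAM-1, and Mac-1 also binds complement fragments and fibrinogen. In bone marrow CD11b is widely used as a marker of granulocytes and monocytes, CD11c of dendritic cells, and CD11a is found on most leukocytes. In human myeloid cells the ETS-family factor PU.1 is known to bind the CD11b promoter.

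On build mm10 the 4 alpha chain genes lay on chromosome 7 and the beta chain gene on chromosome 10. Itgal occupied 127296139 to 127335137, Itgam 128062640 to 128118491, Itgax 128129526 to 128150657 and Itgad 128173933 to 128205504. Itgb2 occupied 77530329 to 77565708 on chromosome 10. Itgam, Itgax and Itgad stood next to each other with 11.03 and 23.3 kb between them and 142.9 kb from the first to the last base, while Itgal lay 727.5 kb to the left of Itgam. The neighbourhoods were rich in genes. The 5 genes had 32 to 53 other protein-coding genes within 500 kb, against a median of 16 over all protein-coding genes (quartiles 9 and 28), and their part in the loop counts was not tested.

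RefSeq promoters on GRCm38.p6, the assembly that mm10 names, were listed for Itgam and Itgax, 2 of the 5 genes. The stretches below run from 250 bases before to 50 after the annotated start. Those of Itgam and Pycard are shown because both starts lay in the anchors of 1 loop, that of Itgax because its start lay in no anchor, and that of Fam207a because its start lay at an anchor joined to the body of Itgb2. Capitals mark GAGGAA, the letters searched for as a PU.1 site, on either strand (TTCCTC is its other strand). They were Itgam at chr7:128062390-128062689 on the plus strand, Pycard at chr7:127993818-127994117 on the minus strand, Itgax at chr7:128129300-128129599 on the plus strand and Fam207a at chr10:77515764-77516063 on the minus strand.
Itgam: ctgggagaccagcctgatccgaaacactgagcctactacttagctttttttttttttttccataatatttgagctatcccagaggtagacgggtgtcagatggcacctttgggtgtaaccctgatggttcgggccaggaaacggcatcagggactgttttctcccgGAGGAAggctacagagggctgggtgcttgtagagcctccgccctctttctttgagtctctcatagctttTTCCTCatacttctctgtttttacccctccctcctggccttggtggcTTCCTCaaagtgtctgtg
Pycard: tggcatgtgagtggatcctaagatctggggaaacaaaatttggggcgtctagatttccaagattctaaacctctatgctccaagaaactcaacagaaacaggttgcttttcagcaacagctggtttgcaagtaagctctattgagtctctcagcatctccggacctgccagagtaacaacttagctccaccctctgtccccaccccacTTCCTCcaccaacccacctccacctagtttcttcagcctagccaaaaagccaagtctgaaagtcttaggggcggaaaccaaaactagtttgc
Itgax: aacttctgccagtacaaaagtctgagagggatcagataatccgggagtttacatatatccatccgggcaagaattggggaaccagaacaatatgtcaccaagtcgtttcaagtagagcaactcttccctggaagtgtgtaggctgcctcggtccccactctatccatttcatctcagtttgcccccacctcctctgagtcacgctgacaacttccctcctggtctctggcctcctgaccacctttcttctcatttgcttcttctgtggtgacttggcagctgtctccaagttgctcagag
Fam207a: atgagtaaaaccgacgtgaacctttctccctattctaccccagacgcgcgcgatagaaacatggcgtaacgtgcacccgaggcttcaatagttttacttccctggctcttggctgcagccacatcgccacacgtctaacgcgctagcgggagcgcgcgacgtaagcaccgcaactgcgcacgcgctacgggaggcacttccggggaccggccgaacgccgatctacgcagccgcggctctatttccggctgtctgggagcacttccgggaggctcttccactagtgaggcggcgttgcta

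The Itgam promoter held GAGGAA 3 times, at -84 on its own strand and at -15 and 32 on the other strand, counted from 0 at the annotated start. The Pycard promoter held it once, at -42 on the other strand, and the promoters of Itgax and Fam207a had 0 matches. Of 32851 promoters of the same length, 28.3% held it at least once. The shorter GGAA, the core of sites for ETS factors and part of every GAGGAA, occurred 5 times in the Itgam promoter, 4 times each in those of Pycard and Itgax and 5 times in that of Fam207a, and 96.0% of all promoters held it. CCCTC, the letters searched for as a core of CTCF sites, occurred 4 times in the Itgam promoter, 2 times in that of Itgax, once in that of Pycard and 0 times in that of Fam207a, and 66.0% of all promoters held it. TTGCGNAA, a C/EBP-like site, and TATAAA, the TATA box, had 0 matches in these promoters, against 0.798% and 13.6% of all promoters with a match. Both strands were searched for each motif, and a match describes the letters of the window and shows no bound factor.

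For each replicate the authors deposited a medium and a high loop list, named after the setting in their file names. The medium lists held 1276 loops in replicate 1 and 5729 in replicate 2, and the high lists held 202 and 3354. By anchor width the medium list of replicate 1 had 0 loops at 5 kb, 202 at 10 kb and 1074 at 25 kb, while that of replicate 2 had 986, 2368 and 2375. The high lists held the same numbers at 5 and 10 kb and 0 at 25 kb. Being in a high list thus went with anchor width and is no further support for a loop. The lists give no read totals, so the depth is unknown. Each loop has an integer labelled n and a second value labelled qBL, which the files leave undefined. Both are the authors' values and were used only to describe and rank loops within a list.

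Under the full rule all 5 genes had a loop, as did 58.7% of all protein-coding genes in the medium lists together. With anchors alone it was again 5 of 5 genes, against 49.9% of all genes. In the replicate 1 medium list 3 of 5 genes had an anchor within 25 kb (Itgam, Itgax and Itgad), against 16.5% of all genes. In the replicate 2 medium list 4 of 5 did (all but Itgax), against 48.8%. In the high lists 0 of 5 genes had one in replicate 1, against 2.8% of all genes, and 4 of 5 in replicate 2, against 32.9%. The genes were chosen with these lists known, and Itgam, Itgax and Itgad share anchors, so these counts describe the members and test nothing.

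The distance to the nearest anchor was taken from each gene body in each medium list. Itgam and Itgad overlapped an anchor in both replicates (0 kb). Itgax lay 4.53 kb from an anchor in replicate 1 and 29.5 kb from one in replicate 2, just outside the 25 kb limit. Itgal lay 639.9 kb from an anchor in replicate 1 and 24.9 kb from one in replicate 2, just inside the limit. Itgb2 lay 459.3 kb from an anchor in replicate 1 and overlapped one in replicate 2. Over all protein-coding genes the median distance was 387.2 kb in replicate 1 and 27.1 kb in replicate 2.

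**Figure D1:**
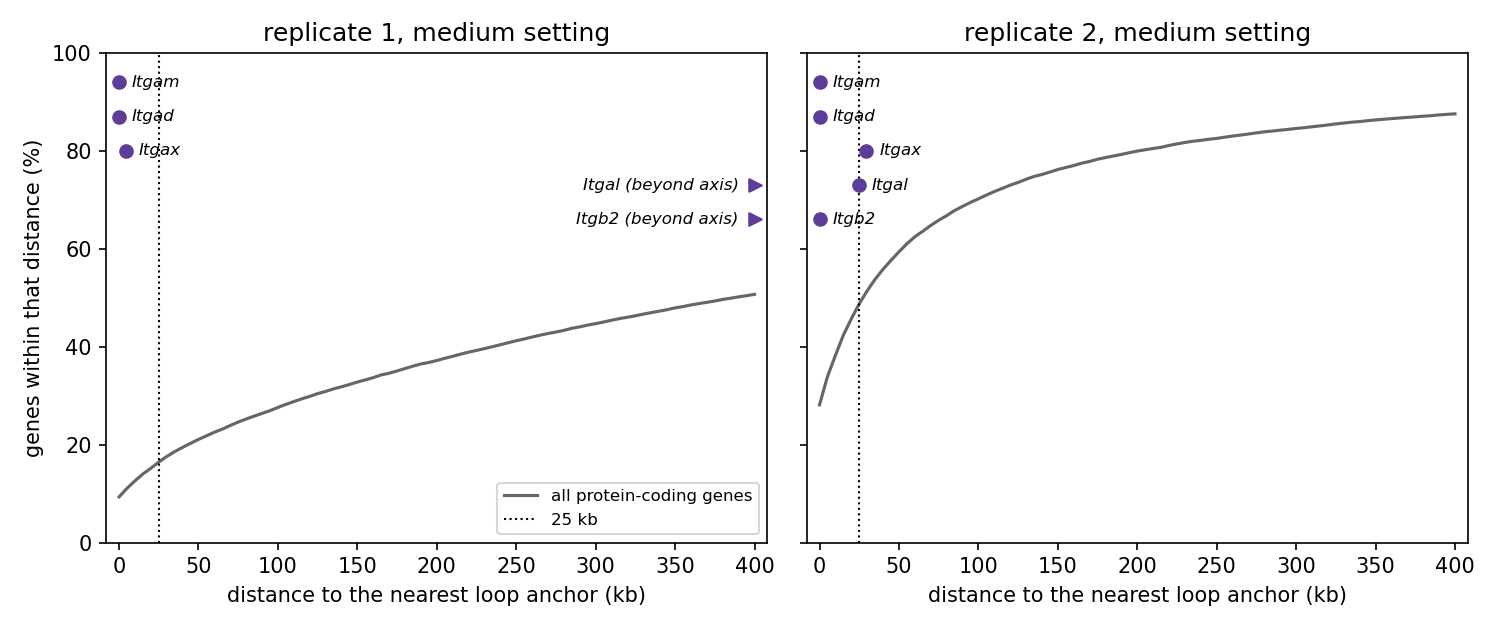
Distance from each integrin gene to the nearest medium-setting loop anchor (points, kb, with heights set only to separate the names) over the share of all protein-coding genes within each distance (line, %), for replicate 1 (left) and replicate 2 (right). Itgam and Itgad sit at 0 kb in both panels, while Itgal and Itgb2 lie beyond the axis in replicate 1, at 639.9 and 459.3 kb.

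Itgam carried most of the loops. To its left lie Trim72, a muscle gene of membrane repair, and Pycard, the gene of ASC, the adaptor that assembles inflammasomes. To its right, after Itgax and Itgad, comes Cox6a2, a heart and muscle subunit gene of cytochrome c oxidase, which overlaps the right end of Itgad.

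In replicate 2 a loop of 70 kb on 10 kb anchors joined 127990001 to 127999999, which held Pycard, to 128060001 to 128069999, which held the start of Itgam. Both genes start inside these anchors, and Trim72 was the only protein-coding gene between them. Its n was 49, against a median of 29 for the 10 kb loops of that list, where it ranked 82 of 2368 from the highest. The median span of those loops was 120 kb, longer than the 70 kb of this loop, and the rank took no account of span. A listed gene start in both anchors was found in 7.35% of the 2368 loops on 10 kb anchors. Starts were not listed for every gene, so this share is a lower bound. The qBL of the loop was 1.17e-08, and, being on 10 kb anchors, it was also in the high list of replicate 2.

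In replicate 1 the corresponding loop ended farther into the gene. It spanned 100 kb on 25 kb anchors, from 127975001 to 127999999, which held Pycard, to 128075001 to 128099999, wholly inside Itgam and to the right of its start. Its n was 43 (rank 132 of 1074 on 25 kb anchors, median 31) and its qBL 0.000355. The left anchors of the 2 replicates overlapped, with midpoints 7.5 kb apart, but the right anchors did not: their midpoints were 22.5 kb apart and their edges 5 kb. At the 20 kb tolerance used here the loops therefore counted as unmatched, and at 25 kb they matched. The start of Itgam lay in an anchor in replicate 2 and in no anchor in replicate 1.

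A second loop joined the right part of Itgam to the right end of Itgad, across Itgax. In replicate 1 it spanned 100 kb, from 128100001 to 128124999, which held the right end of Itgam, to 128200001 to 128224999, which held the right end of Itgad and Cox6a2. Its n was 43, the same as for the other replicate 1 loop, and its qBL 1.78e-08. In replicate 2 it spanned 110 kb on 5 kb anchors, from 128095001 to 128099999, inside Itgam, to 128205001 to 128209999, with the same right end of Itgad and Cox6a2. There its n was 20, against a median of 19 for 5 kb loops (rank 354 of 986), and its qBL was 2.49e-06.

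The midpoints of these 2 loops differed by 15 kb on the left and 5 kb on the right, so they matched. This made 1 of the 2 integrin loops of replicate 1 found again, where 80.6% of the 1276 loops of that list were, and 1 of the 6 of replicate 2, where 18.2% of the 5729 were. At 25 kb it was 2 of 2 in replicate 1, where 88.5% of its list were found again. The left anchors abutted without overlapping. Anchors of different widths stood against each other at both loops, so n was not compared between the replicates.

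Replicate 2 added an outer loop of 225 kb on 25 kb anchors. It joined 127975001 to 127999999, at Pycard, to 128200001 to 128224999, at the right end of Itgad and Cox6a2, with an n of 70 (median 60, rank 859 of 2375) and a qBL of 5.68e-07. These are the same bins as the 2 outer anchors of the replicate 1 loops, which were joined to Itgam from either side there and not to each other. Each outer anchor also contained the outer anchor of one of the narrower replicate 2 loops. The loop had no match in replicate 1 and, being on 25 kb anchors, was not in the high list. Between its anchors lay 3 protein-coding genes (Trim72, Itgam and Itgax), against a median of 1 (quartiles 0 and 2) for 389 loops of 200 to 250 kb on such anchors.

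The 3 loops of replicate 2 thus formed 1 outer loop over 2 narrower ones side by side. Of the 2375 replicate 2 loops on 25 kb anchors, 59 had this arrangement (2.48%), the Itgam one among them. In replicate 1 the facing anchors of the 2 loops abutted. Of 68 such abutting pairs in replicate 1, 20 had a replicate 2 loop on their outer anchors (29.4%). Both arrangements were counted after the loops at Itgam had been seen. Around the stretch from 127975001 to 128224999, 0 other loops crossed either edge in either medium list. Within the replicate 2 list alone, no other loop crossed the outer edges of 47.2% of its loops on 25 kb anchors.

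**Figure D2:**
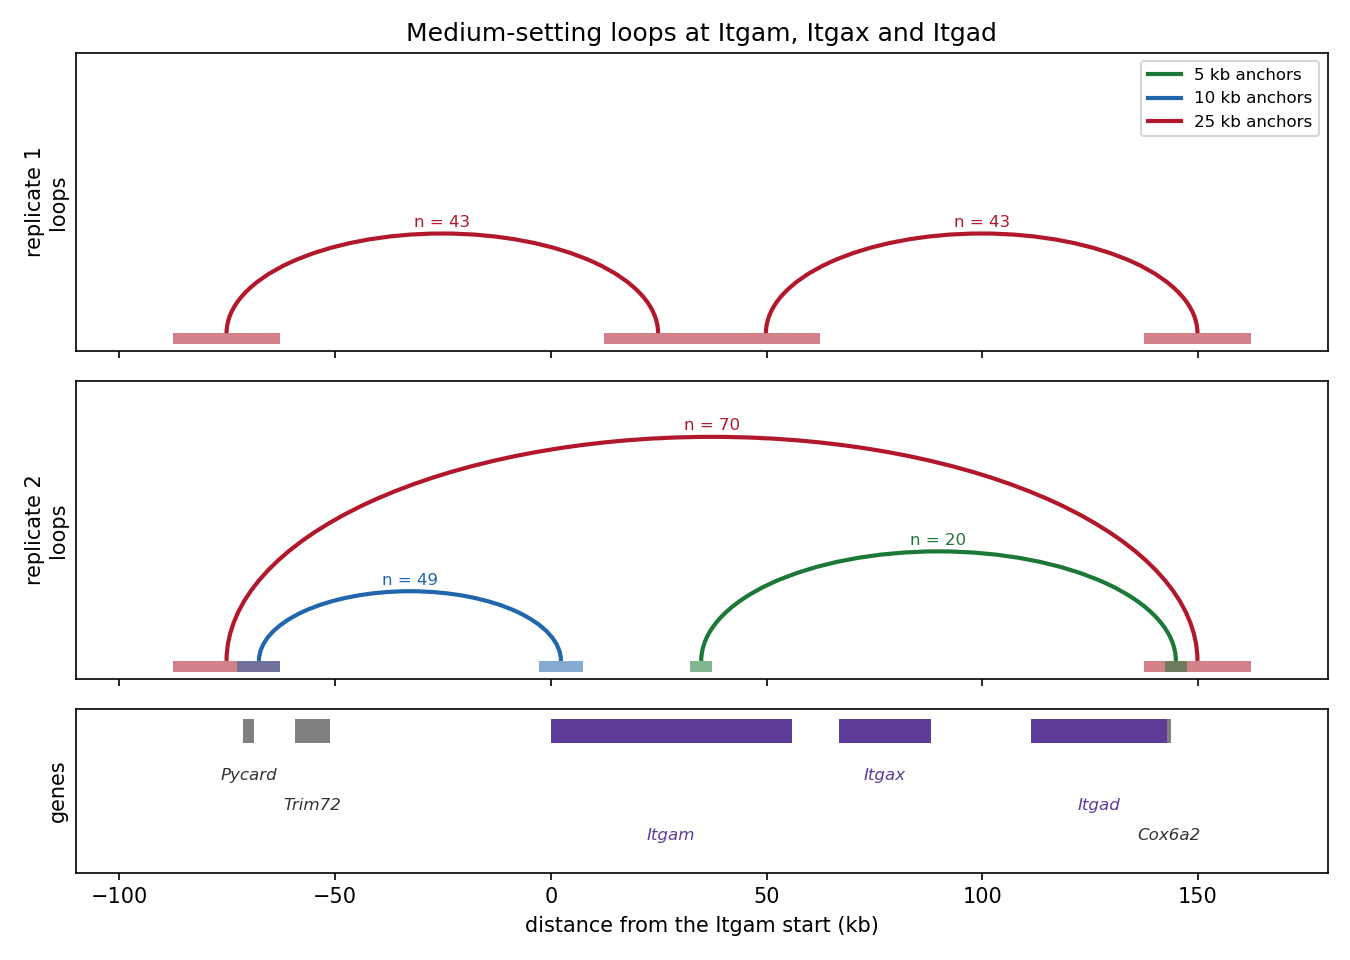
Medium-setting loops at Itgam, Itgax and Itgad in replicate 1 (top) and replicate 2 (middle), drawn as arcs between anchor midpoints over coloured anchor bars, with the genes named in the text below (integrin genes in purple). The x axis is the distance from the Itgam start in kb, and arc height is proportional to span. Loops run from Pycard to Itgam and from Itgam to the end of Itgad in both replicates, and the 225 kb outer loop (n of 70) is in replicate 2 only. The loops from Pycard are unmatched at the 20 kb tolerance, with right anchors 5 kb apart, and those to Itgad are matched.

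Itgam was the only one of the 5 genes with 2 or more loops anchored within 25 kb in each medium list, a count reached by 1.75% of all protein-coding genes. Because Itgam was selected on its loop in both replicates, this share tests nothing. Itga4, another integrin alpha chain gene, also reached that count, with 2 loops in replicate 1 and 4 in replicate 2. Itgad had 1 loop in replicate 1 and 2 in replicate 2, all at its right end. Itgam and Itgad were the 2 genes with an anchor in both medium lists, against 15.3% of all genes. Itgam, Itgax and Itgad lay within 25 kb of an anchor of the matched loop, against 13.7% of all genes at any matched loop. Itgax itself held no anchor in any list. It lay under the loop from Itgam to Itgad in each replicate and, in replicate 2, also under the outer loop.

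Itgb2, the gene of the chain that all 4 alpha chains need, had 2 loops, both in replicate 2. One ended inside the gene: on 5 kb anchors it joined 77515001 to 77519999, which held the start of Fam207a, a ribosome assembly gene, to 77550001 to 77554999 in the body of Itgb2. Its span of 35 kb was the lowest in the list, with 0 of 5729 loops shorter. Its n was 20 (median 19, rank 354 of 986), and its qBL of 0.0408 ranked 5690 of 5729 from the lowest. Ordered by qBL, this loop stood near the top end of the values in its list. Being on 5 kb anchors, it was in the high list as well.

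The other Itgb2 loop passed over the gene. It spanned 100 kb on 25 kb anchors, from 77500001 to 77524999, again at Fam207a and 5.33 kb to the left of Itgb2, to 77600001 to 77624999, which held Sumo3, a gene of a small ubiquitin-like modifier, and the left end of Ube2g2, a ubiquitin-conjugating enzyme gene. Its n was 66 (median 60, rank 974 of 2375) and its qBL 0.00324. Itgb2 and Pttg1ip lay between the anchors. Neither loop had a match in replicate 1, and the nearest replicate 1 anchor was 459.3 kb away.

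Itgal had 1 loop, in replicate 2, and it did not touch the gene. On 10 kb anchors it joined 127360001 to 127369999, 24.9 kb beyond the right end of Itgal with no protein-coding gene in it, to 127480001 to 127489999 inside Fbrs, over 120 kb. Its n was 38 (median 29, rank 481 of 2368) and its qBL 2.14e-08, and, being on 10 kb anchors, it was in the high list. The 7 protein-coding genes between its anchors were Prr14 and 6 others, among them the zinc finger genes Zfp747, Zfp764, Zfp688 and Zfp689, and Itgal lay outside it. Its neighbours Sephs2, a selenophosphate synthetase gene 22.1 kb to the left, and Zfp768, 7.66 kb to the right, lay outside it too. A smaller window of 10 kb left Itgal without a loop. No loop of either medium list joined the surroundings of Itgal to those of Itgam (0 in each). The 2 genes lie 727.5 kb apart, against a median loop span of 150 kb in each list, so this shows no separation of them.

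**Figure D3:**
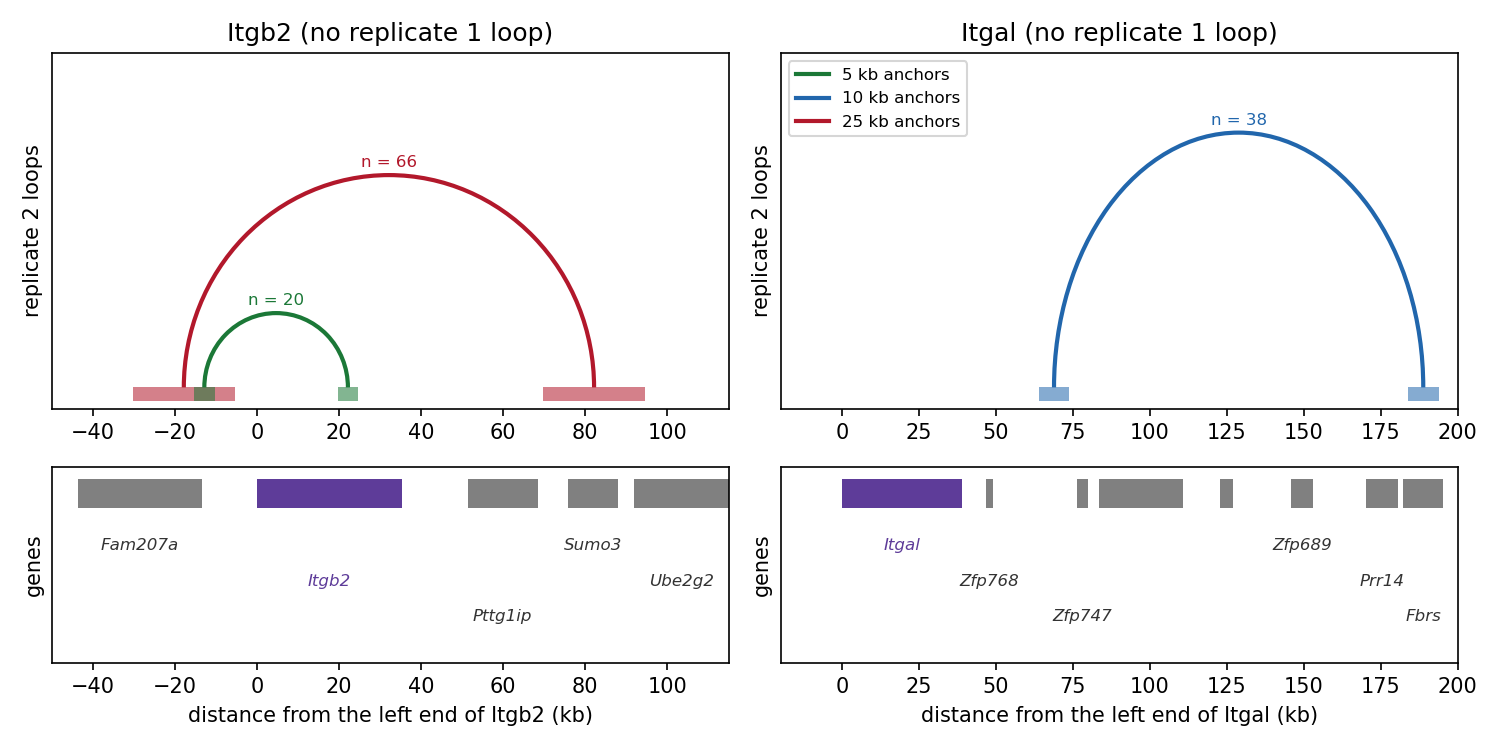
Replicate 2 medium-setting loops at Itgb2 (left) and Itgal (right), drawn as arcs between anchor midpoints over anchor bars, with protein-coding genes below (integrin genes in purple) and the distance from the left end of each gene in kb on the x axis. A 35 kb loop ends inside Itgb2 and a 100 kb loop passes over it, while the 120 kb loop beside Itgal starts 24.9 kb beyond the gene. Replicate 1 had no loop at either gene.

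Across the 8 medium-setting loops, n was at or above the median of its list and anchor width in each. The loop from Pycard to Itgam ranked highest within its width, at 82 of 2368. The 25 kb Itgb2 loop of replicate 2 ranked lowest, at 974 of 2375, with an n of 66 against a median of 60. The 5 kb loops at Itgam and Itgb2 each ranked 354 of 986, with an n of 20 against a median of 19. These ranks took no account of span. Both replicate 1 loops spanned 100 kb, against a median of 175 kb for their width. In replicate 2 the loop from Pycard to Itgam spanned 70 kb (median 120 kb) and the Itgb2 loops 35 kb (85 kb) and 100 kb (225 kb). The Itgal loop and the outer loop were at their medians of 120 and 225 kb. The loop from Itgam to Itgad was above, at 110 kb (85 kb). The part of span in n was not tested.

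**Figure D4:**
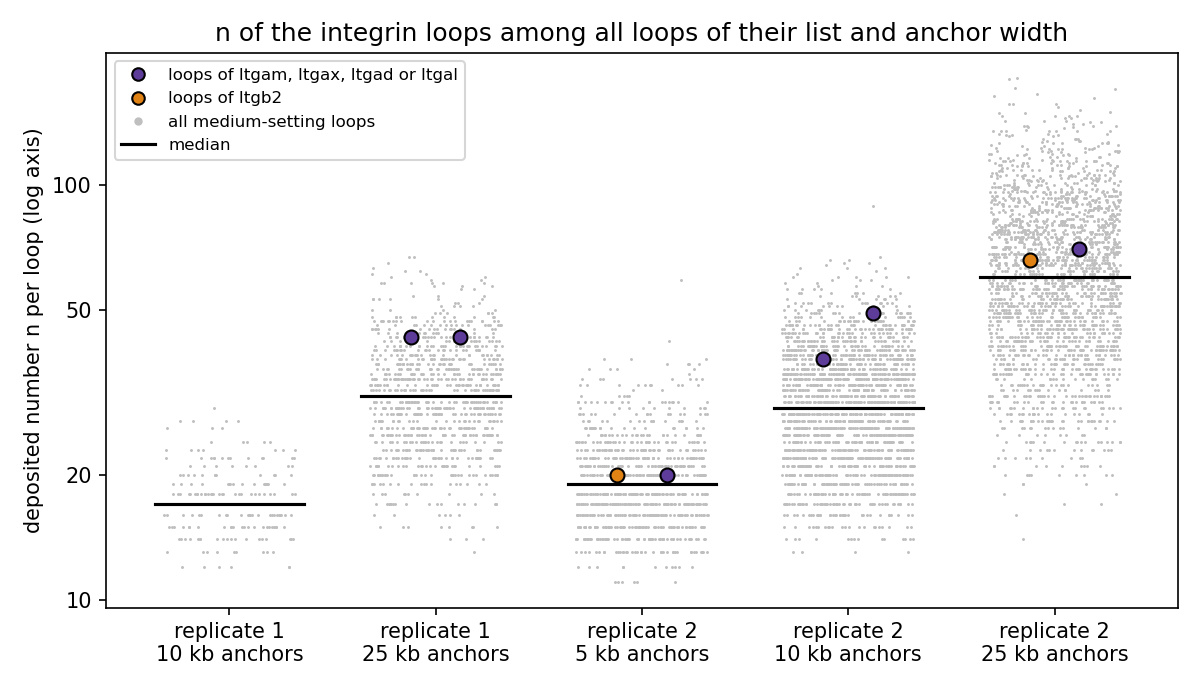
The deposited number n of each medium-setting loop (grey, log axis) by replicate and anchor width, with the loops of the integrin genes in colour and the median as a line. The replicate 1 loops sit at 43 against a median of 31, and the replicate 2 loop from Pycard to Itgam sits at 49 against 29. The medians are over loops of all spans.

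No domain held or overlapped any of the 5 genes. Replicate 1 listed 3 domains, with 0 on chromosomes 7 and 10, and replicate 2 listed 339, with 17 on chromosome 7 and 33 on chromosome 10. In replicate 2 the count of genes wholly inside a domain was 0 of 5, against 3.98% of all protein-coding genes. The nearest domain, 126800001 to 127115000, ended 181.1 kb to the left of Itgal and 947.6 kb to the left of Itgam. To the right the next domain on chromosome 7 began 4424 kb beyond Itgad. Around Itgb2 the nearest domains lay 2030 kb to the left and 7069 kb to the right. The 225 kb outer loop over Itgam and Itgax was thus listed without a domain.

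The other integrin chain genes were described in the same way, with 14 alpha and 7 beta chains. Of the alpha chains 11 of 14 had an anchor within 25 kb in the medium lists together, with 6 in replicate 1 and 11 in replicate 2. In each replicate Itga1 and Itga2 were counted on a shared loop, so these genes are not separate observations. Of the beta chains 7 of 7 had one, 1 in replicate 1 and 7 in replicate 2. The beta-2 integrin genes had 5 of 5, with 3 in replicate 1 and 4 in replicate 2, and the share of all genes was 49.9% together, 16.5% in replicate 1 and 48.8% in replicate 2. The replicate 1 count of the beta chains was near the replicate 1 share. The integrin genes were longer than most. Their median lengths were 35.4 kb for the beta-2 integrin genes, 74.6 kb for the other alpha and 62.5 kb for the other beta chains, against 17.4 kb for all protein-coding genes. The part of length in these counts was not tested.

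Over the 4 lists Itgam had the pattern of an anchor within 25 kb in both medium lists and in the high list of replicate 2, and none in the high list of replicate 1. As the high lists lack only the loops on 25 kb anchors, the 4 lists are not separate observations. Itgad shared this pattern, as did the other integrin genes Itga4, Itga5, Itga6 and Itgb5 and 10.2% of all protein-coding genes. Itga4, an alpha chain gene of lymphocyte and progenitor adhesion, had 2 loops in replicate 1 and 4 in replicate 2. A matched loop, of 310 kb in replicate 2 and 325 kb in replicate 1, ended inside the gene. Itgb5 had a matched loop of 130 kb in replicate 2, where its left end lay in an anchor, and of 150 kb in replicate 1.

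Itga1 and Itga2, collagen receptor alpha chain genes that also stand side by side, gave another case of a loop at neighbouring alpha chains. In replicate 2 a loop of 135 kb on 5 kb anchors joined 114825001 to 114829999 on chromosome 13, 3.08 kb to the left of Itga2, to 114960001 to 114964999 inside Itga1, with an n of 15. In replicate 1 the matched loop of 130 kb on 10 kb anchors had the left end of Itga2 in its left anchor and ended inside Itga1, with an n of 16, and it was in the high list. Itgav, an alpha chain gene of vitronectin receptors, had a matched loop of 120 kb in replicate 2 and of 110 kb in replicate 1, from an anchor at Zc3h15 into the gene.

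Of 13 ligand genes of the beta-2 integrins, 11 had an anchor within 25 kb, against 49.9% of all genes. In replicate 1 it was 3, near the 16.5% of all genes there, and in replicate 2 it was 11, against 48.8%. F11r, the gene of the junctional adhesion molecule JAM-A, which binds LFA-1, lay 10.4 kb from the anchor of a 125 kb loop listed at identical anchors in both replicates, with an n of 108 in replicate 2 and 35 in replicate 1. Gp1ba, a platelet glycoprotein gene whose product binds Mac-1, overlapped the anchor of a 125 kb loop in replicate 1 and lay 4.1 kb from that of the matched 125 kb loop in replicate 2. The ICAM genes Icam1, Icam4 and Icam5 had loops in replicate 2 only, with 3, 2 and 1, and Icam2 had 1 in replicate 1 and 2 in replicate 2. The loop of Icam5 was counted for Icam1 and Icam4 too, and the other Icam4 loop also for Icam1. The 2 ligand genes without an anchor were Thy1 and Vcam1.

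Of 22 genes of integrin activation and signalling, 19 had an anchor within 25 kb. In replicate 1 it was 8, against 16.5% of all genes, and in replicate 2 it was 19, against 48.8%. The 3 without one were Tln1 and Fermt3, the genes of talin and kindlin-3, which bind beta chain tails to activate integrins, and Rasgrp2, an activator of Rap1. Rap1a, a gene of Rap1, the small GTPase upstream of talin, had 3 loops in replicate 2 and 1 in replicate 1, including a matched loop of 100 kb in each. The 4 lists together came to 48 of 56 genes, or 85.7%, against 49.9% of all protein-coding genes. Neighbouring genes were counted on the same loops, among them Itga1 and Itga2, Fga, Fgb and Fgg, and Icam1, Icam4 and Icam5. The 48 genes are thus not separate observations, and their share was not tested. Their median gene lengths ran from 7.62 kb for the ligands to 74.6 kb for the other alpha chains.

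**Figure D5:**
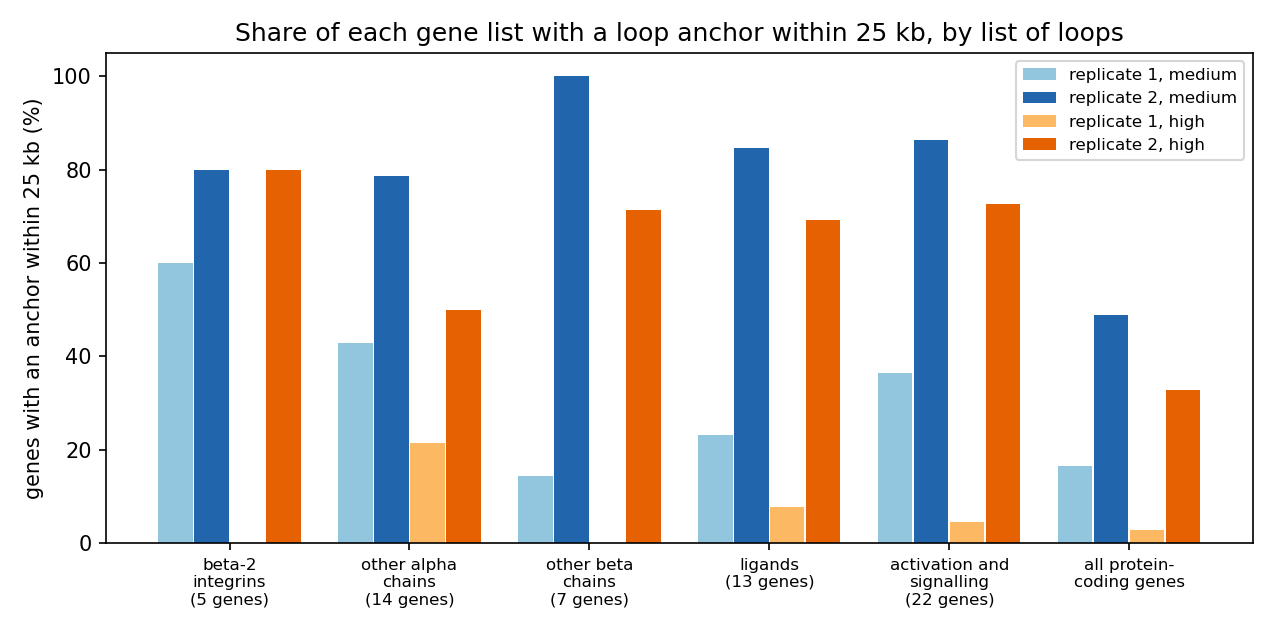
Share of each gene list with a loop anchor within 25 kb of the gene (%), by replicate and setting, with all protein-coding genes at the right. In the replicate 1 medium list 3 of 5 beta-2 integrin genes had an anchor, against 16.5% of all genes, and in the replicate 1 high list 0 of 5 did.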

How the data were processed

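Hi-C was run on 2 samples of HPC5 cells with the Arima kit after fixation in 2% formaldehyde, per the labels' protocols. HiC-Pro 2.11.1 and the build mm10 are named in the submitters' processing notes, and no label or header names the loop and domain callers. The authors deposited 2 loop lists and 1 domain list per replicate. Loop coordinates are as deposited, and domain starts were moved to count from 1. The deposited n and qBL are values with no defined scale, and the domain score was not used.

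Gene positions are those of RefSeq on GRCm38.p6 (345 genes of other scaffolds left out), as are gene starts and promoters. Loops matched when both anchor midpoints lay within 20 kb. Anchors and genes were compared with Python 3.11.15, numpy 2.4.6 and pandas 2.3.3, in scripts tested on simulated data. No test between conditions was possible and no p-value was computed. The members, lists and motifs were chosen with earlier results of these data known. Named genes are the members, genes at their anchors or beside them, integrin genes with the call pattern of Itgam, and the first 8 genes, in list and chromosome order, with an anchor in both replicates at a matched loop; other list genes were named after their values were seen. A gene near these loops is left unreported.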

Additional observations from a re-analysis of the deposited data

How the results depend on the processing

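Of the 5 genes, 3 had an anchor with no window around the gene (Itgam, Itgad and Itgb2) and 3 to 4 when one replicate was left out: 3 without replicate 2 and 4 without replicate 1. The count was 4 to 5 with windows of 10, 50 and 100 kb, with the high setting and with gene ends. The number of replicate 1 integrin loops found in replicate 2, 1 at 20 kb, was 0 at 10 kb, 2 at 25 kb, 2 at 50 kb, 0 when anchors had to overlap and 0 under the high setting, which held 0 integrin loops in replicate 1. That last 0 was fixed in advance, because both replicate 1 integrin loops were on 25 kb anchors, which the high lists lack. Replicate 1 had 2 integrin loops at each window, and replicate 2 had 5 to 6. Under the high setting the counts were 0 in replicate 1 and 4 in replicate 2. The share of all protein-coding genes at an anchor, 49.9% (95% Wilson interval 49.3 to 50.6%, counting error only), was 30.0, 39.6, 60 and 70.7% with windows of 0, 10, 50 and 100 kb, 39.3% over all annotated genes, and 16.5 to 48.8% when one replicate was left out. The count of 48 list genes was 18 to 48 when one replicate was left out (18 without replicate 2) and 37 to 54 otherwise. No paired analysis was possible because the 2 samples form 1 group. The depth is unknown, and replicate 1 has the shorter lists, so a loop missing from it was not detected there and is not shown to be absent.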

Other observations

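The flanks of the alpha chain genes held further loops, picked out after their values were seen. To the left of Itgal, Spn, the gene of the leukocyte surface sialoprotein CD43, held the left anchor of a 50 kb loop in replicate 2, at 127130001 to 127139999 on 10 kb anchors, with an n of 48, and replicate 1 had no loop there. To the right of the integrin block, Tial1, an RNA-binding protein gene, was joined to an anchor at the ends of Inpp5f and Mcmbp. That loop was matched between the replicates, with a span of 240 kb and an n of 36 on 10 kb anchors in replicate 2, and 250 kb and an n of 36 on 25 kb anchors in replicate 1.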
